A study of Mus musculus with 3 samples.

Results

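CD antigens are proteins of the cell surface that were numbered as antibodies against blood cells were sorted into clusters of differentiation, so the name says how a protein was found and not what it does. They include tetraspanins, which organise other proteins in the membrane, scavenger and lectin receptors of macrophages, regulators that shield a cell from complement, and receptors and ligands through which leukocytes activate or restrain each other. Spleen is rich in lymphocytes and in the macrophages of the red pulp and marginal zone. Liver consists mostly of hepatocytes, with Kupffer cells as its resident macrophages. The mouse genes described here are those whose platform symbol is Cd, a number and at most a letter and a digit, without the receptors used to define lymphocyte and antigen-presenting cell sets (such as Cd3e, Cd4, Cd8a, Cd22, Cd74, Cd79a and Cd86). The rule used no measured value. It found 60 probes of 45 genes. The table holds 16281 probes, of which 13738 had a single symbol, for 10698 genes. It also took in 4 genes whose symbols only build on such a name: Cd5l, Cd164l2, Cd200r1 and Cd200r3.

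Each of 3 two-colour oligonucleotide arrays compared liver RNA in the red dye with spleen RNA in the green dye, both commercial mouse total RNA amplified in a single round. The labels give no strain, sex, age or number of mice for either RNA, and the same catalogue product served for each organ on all arrays. The arrays were taken as repeats of 1 comparison, so SDs and p-values reflect how far repeat arrays of the same RNAs differ, which may be technical, and say nothing of the spread between mice. The dyes were the same way round on every array. An organ difference and a dye bias of the probe therefore cannot be told apart.

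The values are the deposited log2 ratios, read as liver over spleen, so a positive value is higher in liver. That direction is likely but not stated, and rests on genes of known site outside those found by the rule. The liver genes had medians of 4.04, 4.62 and 3.80 on arrays 1, 2 and 3, resting on the plasma glycoprotein gene Ahsg alone on arrays 1 and 3, and the 8 spleen genes had medians of -1.62, -1.63 and -1.08. The spleen genes were Cd22, Cd74, Cd79a, Cd79b, Cr2, Ptprc, Cd3e and Ms4a1. Over probes measured on all arrays, Cd3e and Ms4a1 averaged slightly above 0, at 0.13 and 0.05, and the others below 0. Albumin (Alb) was measured on array 2 only, at 6.16, and was listed at exactly 0 on the other arrays, as were Apoa1, Ttr, Rbp4 and Apoh on every array. An exact 0 was therefore taken as no measurement. The ratios of all 9803 genes spread least on array 3, where their SD was 0.892. On arrays 1 and 2 it was 0.997 and 1.01. Intensities of the single channels were not used here, and the number of arrays limits the precision.

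Of the 45 CD antigen genes, 43 had a probe measured on all 3 arrays. Cd34, a sialomucin of blood progenitors and endothelium, had a value on array 2 alone, at -0.41. Cd164l2 had values on arrays 2 and 3, at -0.30 and 0.0029. Neither was tested. Where a gene had several measured probes their ratios were averaged on each array.

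Most CD antigens past the test were higher in spleen, and a smaller set was higher in liver. By limma, 31 of the 43 had a ratio different from 0 at an adjusted p under 0.05 (72.1%, against 52.8% of all 9803 genes). In liver 10 were higher (23.3%, against 25.3% of all genes) and in spleen 21 were higher (48.8%, against 27.4% of all genes). At 2-fold or more, 3 were higher in liver (9.21% of all genes were) and 10 higher in spleen (8.4% of all genes were). The share toward liver lay near that of all genes, and the share toward spleen above it. The median over the 43 genes was -0.34, against 0.02 over all genes, and 36 of the 43 had the same sign on all 3 arrays (74.7% of all genes did).

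**Figure D1:**
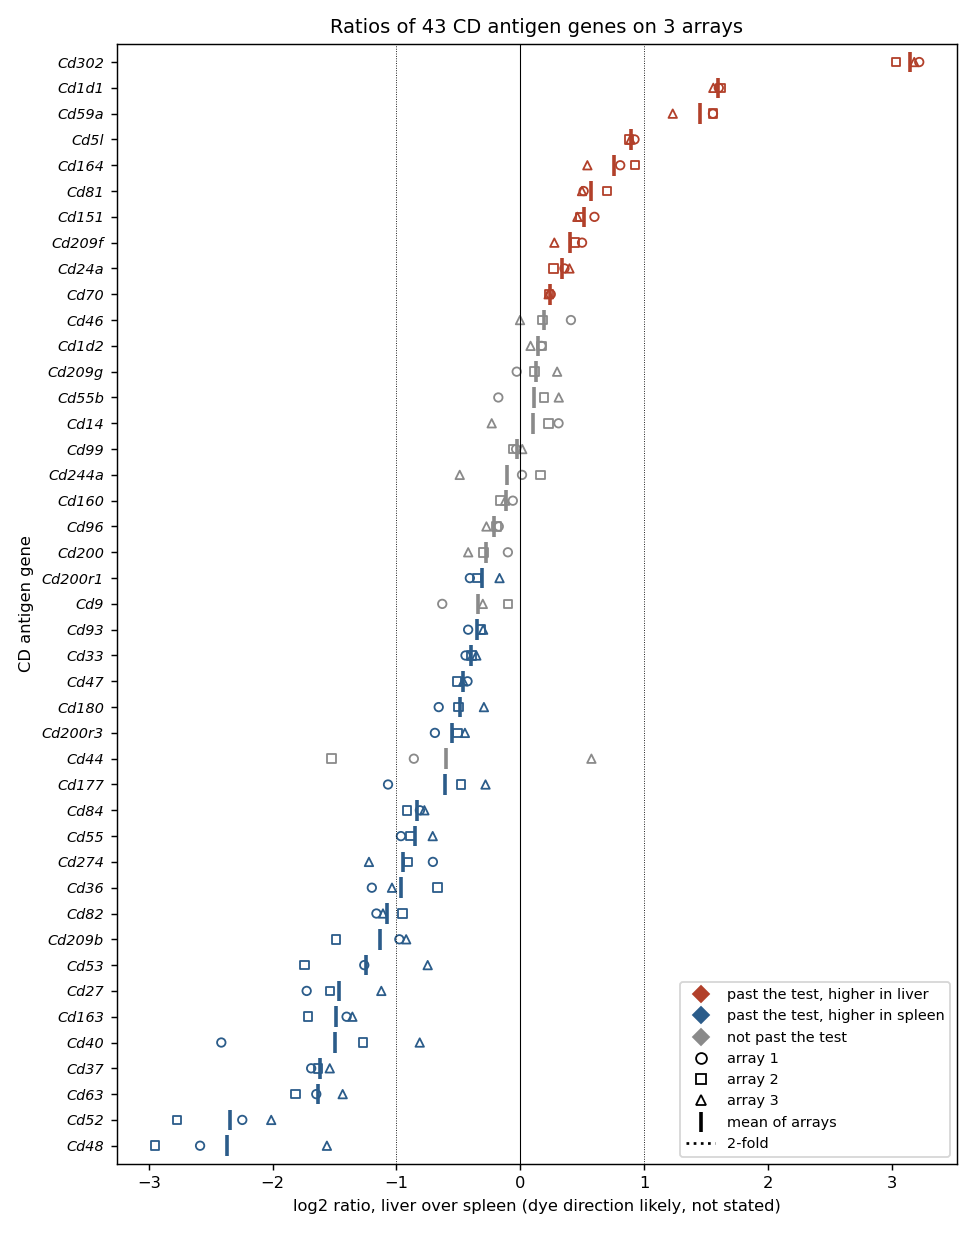
Log2 ratio, liver over spleen (x axis), of each of the 43 measured CD antigen genes (y axis, highest ratio at the top) on arrays 1, 2 and 3 (open symbols) with the mean (bar). Colours mark genes past the test in each direction, and dotted lines mark 2-fold. Cd302 stands alone at the top with all arrays above 3, while Cd48 and Cd52 lie lowest and Cd44 has arrays on both sides of 0.

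**Figure D2:**
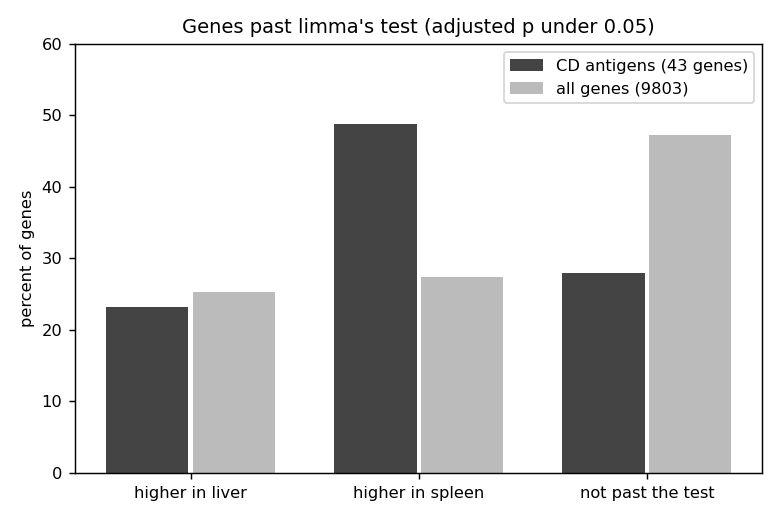
Percent of genes (y axis) past the test and higher in liver, past the test and higher in spleen, or not past the test, for the 43 CD antigen genes (dark bars) and all 9803 genes (light bars). The bars for liver are of like height, at 23.3% and 25.3%, and those for spleen are 48.8% and 27.4%.

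Cell type markers went in both directions. Of 5 macrophage markers (Csf1r, Adgre1, Lyz2, C1qa and C1qb) all 5 passed toward spleen, with means between -2.66 and -0.35. Of 5 B-cell markers none passed toward liver and 3 toward spleen, with Ms4a1 at 0.05 ± 0.29 and Pax5 at -0.18 ± 0.28 not past the test. Other Ms4a1 probes, not measured on all arrays, were far below 0, with probe 4078 at -1.46 and -3.87 on arrays 1 and 2 and probe 4225 at -4.51 on array 2. Of 4 measured T-cell markers Zap70 passed toward liver at 0.54 ± 0.04, Cd3d and Cd3g passed toward spleen, and Cd3e did not pass. The 3 B-cell markers that passed (Cd79a, Cd79b and Cr2), Ms4a1 and Cd3e were among the genes from which the direction was read. Their side is therefore no separate support for it. Among 4 erythroid markers the red-cell glycoprotein Rhag passed toward liver at 1.66 ± 0.26 and the other 3 toward spleen, as did all 4 platelet markers. Of the 2 measured Kupffer cell markers the lectin Clec4f was at 1.62 ± 0.17 and Marco at -2.05 ± 0.26. The endothelial markers Kdr and Cdh5 did not pass, at 0.20 ± 0.44 and 0.16 ± 0.14. In whole-organ RNA fewer cells of a type and less RNA per cell cannot be told apart, and the part of cell composition in the ratios of the CD antigens was not tested.

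Cd302, a C-type lectin-like receptor that takes up ligands by endocytosis, had the highest ratio among the CD antigens. It read 3.22, 3.04 and 3.18 on arrays 1, 2 and 3. The arrays lay close together and far above 0, for a mean of 3.15 ± 0.10 (SD, n = 3 arrays), an 8.86-fold higher signal in liver (limma, adjusted p = 1.28e-05). Cd59a, a GPI-anchored inhibitor of the membrane attack complex of complement, read 1.56, 1.56 and 1.23. Its mean was 1.45 ± 0.19, a 2.73-fold ratio (limma, adjusted p = 0.000153), with array 3 the lowest. Cd302 and Cd59a each rested on 1 probe, so the closeness of arrays does not show how another probe would read. Cd1d1, which presents lipids to natural killer T cells, read 1.60, 1.62 and 1.56, a 3.02-fold ratio from a pair of probes that differed and are set out with the other such genes. Cd1d2, its close relative, stood at 0.14 ± 0.05 and did not pass (limma, adjusted p = 0.162; 95% interval -0.05 to 0.33). Near-identical relatives such as Cd1d1 and Cd1d2, Cd55 and Cd55b, or the Cd209 lectins may bind each other's probes, which was not tested.

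At the spleen end stood Cd48 and Cd52. Cd48, a GPI-anchored SLAM family protein of leukocytes and the ligand of Cd244a, read -2.59, -2.95 and -1.56. All arrays lay below -1.5 but array 3 was well short of the others, so that the mean of -2.37 had an SD of 0.72 (5.16-fold higher in spleen; limma, adjusted p = 0.000994). Cd52, a short GPI-anchored glycopeptide of lymphocytes and other leukocytes, read -2.25, -2.77 and -2.01, a mean of -2.34 ± 0.39 (5.07-fold higher in spleen; limma, adjusted p = 0.000143). Its arrays did not come near 0. Cd48 and Cd52 also rested on 1 probe each. Of the 13 CD antigen genes past the test at 2-fold or more, 11 had their ratio of smallest size on array 3 and 2 had it on array 2. Of all 43 measured CD antigen genes, 28 had it on array 3, the array with the narrowest spread over all genes. The share over all genes was not computed, and a link to that spread was not tested.

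Promoter windows were read for the genes at both ends, 3 in each direction, taking the genes with the largest ratios for which the RefSeq table of GRCm38.p6 held a window. They run from 250 bases before the annotated start to 50 after it. Cd1d1 and Cd52 were not matched to a window. Capitals mark matches, on either strand, to the CCAAT box (CCAAT), the TATA box (TATAAA), the GC box (GGGCGG) and a purine-rich core like that bound by PU.1 (GAGGAA). The windows of the genes higher in liver were these.
Cd302, chr2:60284435-60284734, minus strand: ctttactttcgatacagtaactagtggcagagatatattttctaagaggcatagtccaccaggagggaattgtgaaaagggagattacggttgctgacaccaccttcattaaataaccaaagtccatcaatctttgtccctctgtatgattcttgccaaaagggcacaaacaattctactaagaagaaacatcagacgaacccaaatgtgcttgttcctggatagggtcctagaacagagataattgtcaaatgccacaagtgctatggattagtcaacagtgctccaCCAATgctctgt
Cd59a, chr2:104095551-104095850, plus strand: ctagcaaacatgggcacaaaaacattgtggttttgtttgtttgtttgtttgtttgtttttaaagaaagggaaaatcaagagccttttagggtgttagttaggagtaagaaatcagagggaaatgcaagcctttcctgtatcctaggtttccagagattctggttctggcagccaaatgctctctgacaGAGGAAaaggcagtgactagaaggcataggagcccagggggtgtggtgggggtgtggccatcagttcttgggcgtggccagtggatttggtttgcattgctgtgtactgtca
Cd5l, chr3:87357631-87357930, plus strand: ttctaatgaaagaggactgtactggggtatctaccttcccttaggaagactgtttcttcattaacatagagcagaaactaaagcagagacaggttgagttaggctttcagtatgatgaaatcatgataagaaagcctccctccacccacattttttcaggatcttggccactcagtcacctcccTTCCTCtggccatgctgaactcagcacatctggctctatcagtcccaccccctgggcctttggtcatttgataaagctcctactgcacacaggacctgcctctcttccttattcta
Those of the genes higher in spleen were these.
Cd48, chr1:171681742-171682041, plus strand: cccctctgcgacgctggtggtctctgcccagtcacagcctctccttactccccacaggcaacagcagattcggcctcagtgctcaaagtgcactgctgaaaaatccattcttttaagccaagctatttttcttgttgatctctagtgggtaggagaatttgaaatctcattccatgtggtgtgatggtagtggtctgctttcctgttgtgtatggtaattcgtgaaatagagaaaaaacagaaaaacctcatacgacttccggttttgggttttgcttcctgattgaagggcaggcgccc
Cd63, chr10:128909095-128909394, plus strand: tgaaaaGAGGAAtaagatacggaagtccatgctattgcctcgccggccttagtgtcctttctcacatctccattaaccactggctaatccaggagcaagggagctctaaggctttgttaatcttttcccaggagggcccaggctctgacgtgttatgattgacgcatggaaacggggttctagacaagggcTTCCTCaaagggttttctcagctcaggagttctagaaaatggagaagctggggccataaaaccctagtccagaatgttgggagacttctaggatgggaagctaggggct
Cd37, chr7:45238790-45239089, minus strand: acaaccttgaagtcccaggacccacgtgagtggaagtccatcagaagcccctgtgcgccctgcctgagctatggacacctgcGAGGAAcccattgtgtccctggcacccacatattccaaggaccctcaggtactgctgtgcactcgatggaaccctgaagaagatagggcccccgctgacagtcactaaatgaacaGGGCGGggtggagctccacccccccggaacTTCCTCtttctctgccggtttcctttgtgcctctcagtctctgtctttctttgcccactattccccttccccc
The Cd302 window held 1 CCAAT box and none of the other motifs, and the Cd59a and Cd5l windows 1 purine core each. The Cd48 window held none of the 4 motifs, the Cd63 window 2 purine cores, and the Cd37 window 2 purine cores and 1 GC box. The windows held 3 CpG dinucleotides in Cd302, 1 in Cd59a, none in Cd5l, 7 in Cd48, 6 in Cd63 and 8 in Cd37. Genes within each direction varied more widely, with 36 in Cd164 and 23 in Cd81 toward liver. Toward spleen there were 2 in Cd163, and 35 and 36 in the windows of Cd47. The medians were 3.5 over 8 windows of genes past the test toward liver and 5.5 over 22 toward spleen.

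Windows were found for 33 of the 43 measured genes, 40 windows in all. The purine core was in 15 of the 40 (37.5%), against 28.3% of all 32851 windows in the table. It was in 3 of the 8 windows of genes past the test toward liver and in 8 of the 22 of genes past it toward spleen. GC boxes were in 16 of the 40 (40.0%), against 35.7% of all windows, CCAAT boxes in 10 (25.0%, against 37.4%) and TATA boxes in 6 (15.0%, against 13.6%). The median window held 6 CpG dinucleotides, against 7 over all windows. These matches are descriptions of letters and no evidence of binding, and some genes count more than once because they have several starts.

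Tetraspanins, membrane proteins that gather integrins and other partners into webs, differed in direction among themselves. Of 7 measured, 2 passed toward liver, 4 toward spleen and 1 did not pass, with a median of -1.07. Over all genes 25.3% passed toward liver and 27.4% toward spleen. The counts of this and the following short lists are to be read against those shares. Cd63, a tetraspanin of late endosomes and secretory granules, read -1.65, -1.82 and -1.43 (limma, adjusted p = 0.000105). A second Cd63 probe, without a value on array 2, gave -1.68 on array 1 and -1.04 on array 3. Cd37, a tetraspanin of leukocytes and above all of mature B cells, averaged -1.62 ± 0.08 over probes that differed, at -2.64 and -0.60. Cd53, also of leukocytes, read -1.26, -1.74 and -0.75, with the arrays spread widely but all below 0, and averaged -1.25 ± 0.50. Cd82, a broadly expressed member first known as a suppressor of metastasis, averaged -1.07 ± 0.11. The means of all 4 of these were at least 2-fold higher in spleen, though the Cd37 probe at -0.60 alone was not.

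The tetraspanins toward liver had smaller ratios. Cd81, which forms part of the B-cell coreceptor and in humans is an entry receptor of hepatitis C virus, read 0.51, 0.70 and 0.50, a 1.49-fold ratio (limma, adjusted p = 0.00269). Cd151, a partner of laminin-binding integrins, read 0.60, 0.48 and 0.46, a 1.43-fold ratio (limma, adjusted p = 0.00309). Cd9, found on platelets and many other cells, read -0.63, -0.10 and -0.30 and did not pass (limma, adjusted p = 0.0574). Without array 2 it averaged -0.47 and did pass (limma, adjusted p = 0.0469). Among 13 measured tetraspanins with other symbols, 1 passed toward liver, 4 toward spleen and 8 did not pass, with a median of -0.13. The share past the test was 38.5%, against 52.8% of all genes. The widest ratios among these tetraspanins were those of Tspan31 at 3.10 ± 0.25 and Tspan32, a tetraspanin of blood cells, at -2.93 ± 0.23.

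**Figure D3:**
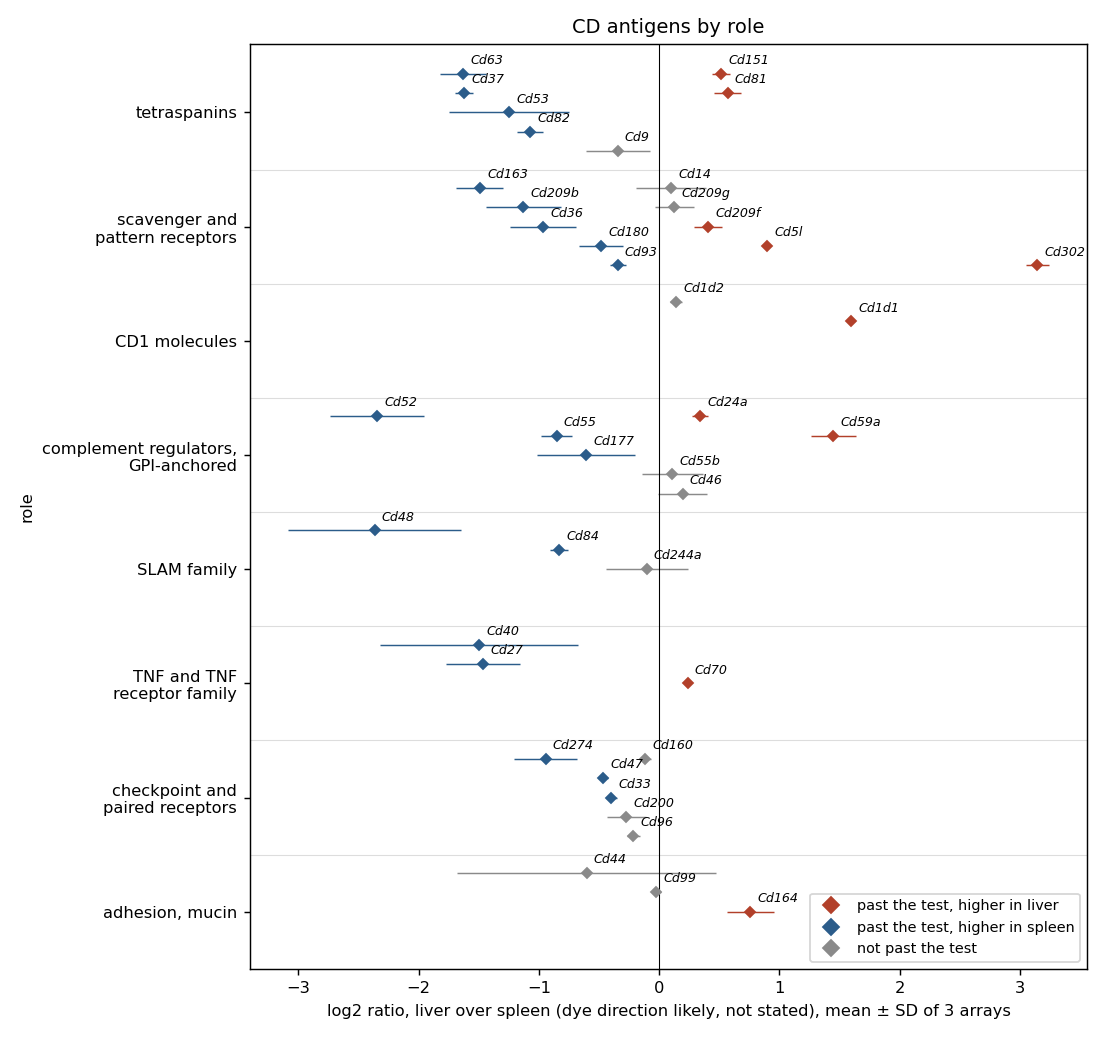
Mean log2 ratio, liver over spleen (x axis), with the SD of 3 arrays for the CD antigen genes arranged by role (y axis). Cd200r1 and Cd200r3, which are in none of the role lists, are not drawn. The tetraspanins fall on both sides of 0, from Cd63 at -1.63 to Cd81 at 0.57, and the scavenger and pattern receptors reach from Cd163 at -1.49 to Cd302 at 3.15.

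Scavenger and pattern receptors also lay on both sides. Of 10 measured, 3 passed toward liver, 5 toward spleen and 2 did not pass, with a median of -0.12. Cd163, the macrophage receptor for haemoglobin bound to haptoglobin, read -1.40, -1.71 and -1.36, a 2.81-fold higher signal in spleen (limma, adjusted p = 0.000148). Cd209b, the lectin SIGN-R1 of marginal zone macrophages, read -0.98, -1.49 and -0.92, with array 2 apart, and averaged -1.13 ± 0.31. Cd36, a scavenger receptor and fatty acid carrier, averaged -0.97 ± 0.27. Cd5l, a secreted scavenger-receptor-like protein of tissue macrophages, went the other way at 0.90 ± 0.02, and its separate probes averaged 0.97 and 0.82. Cd163 and Cd5l, both macrophage products, passed the test in opposite directions.

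The Cd209 lectins are relatives of the human dendritic cell receptor DC-SIGN, and their genes stand close together on chromosome 8. Cd209f was at 0.41 ± 0.12, opposite in sign to Cd209b, and Cd209g read -0.03, 0.11 and 0.30 and did not pass. The call of Cd209f was lost without array 1, at 0.36 (limma, adjusted p = 0.0591), and without array 2, at 0.39 (limma, adjusted p = 0.0561). Cd93, a receptor of endothelial and myeloid cells, averaged -0.35 ± 0.07 and did not pass without array 1, at -0.31 (limma, adjusted p = 0.0764), or without array 2, at -0.36 (limma, adjusted p = 0.0544).

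Cd14 and Cd180 belong to the recognition of bacterial lipopolysaccharide. Cd14, which hands lipopolysaccharide to the Tlr4 complex, read 0.31, 0.23 and -0.23 and did not pass (limma, adjusted p = 0.522; 95% interval -0.21 to 0.42). Its plasma partner Lbp, the lipopolysaccharide-binding protein made by hepatocytes, averaged 3.20 ± 0.11, while Tlr4 was at -0.46 ± 0.17 and passed toward spleen. Ly96, the subunit of the Tlr4 complex that binds the lipid, was at 0.02 ± 0.03 and did not pass. Cd180, a Tlr4-like receptor of B cells and myeloid cells, averaged -0.48 ± 0.18 over probes at -1.24 and 0.27. In the fit over all probes these passed in opposite directions, the probe at 0.27 only narrowly (limma over probes, adjusted p = 0.0495). In the fit over genes, Cd180 did not pass with that probe alone (limma, adjusted p = 0.0516). Ly86, which pairs with Cd180 on the surface, averaged -1.12 ± 0.05. Of 7 measured genes of this system outside the CD antigens, 2 passed toward liver and 3 toward spleen.

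Complement regulators, listed together with some GPI-anchored proteins, had no shared direction. Of 7 measured, 2 passed toward liver, 3 toward spleen and 2 did not pass, with a median of 0.11. GPI-anchored proteins counted in other lists, such as Cd48, are not among the 7. Besides Cd59a and Cd52, the C3 convertase inhibitor Cd55 averaged -0.85 ± 0.13 over 3 probes that differed. Cd55b, the adjacent gene on chromosome 1, read -0.18, 0.19 and 0.31 and did not pass. Cd46, a complement cofactor that in mice is largely restricted to testis, read 0.41, 0.18 and -0.00146 and did not pass (limma, adjusted p = 0.162). Among complement regulators and receptors with other symbols, the plasma protein Vtn passed toward liver at 2.10 ± 0.10, while the complement receptor Cr2 and the membrane regulator Cr1l passed toward spleen at -1.85 ± 0.29 and -1.30 ± 0.31. Cr2 was one of the genes from which the direction was read.

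Cd24a, the heat-stable antigen of immature blood cells and epithelia, was at 0.34 ± 0.07. Its call was lost without array 1, at 0.33 (limma, adjusted p = 0.0674), and without array 3, at 0.31 (limma, adjusted p = 0.0517). Cd177, a neutrophil surface protein, read -1.07, -0.48 and -0.28, all below 0 but far apart. It passed at -0.61 ± 0.41 (limma, adjusted p = 0.0254), and did not pass without array 1, at -0.38 (limma, adjusted p = 0.0540), or without array 2, at -0.67 (limma, adjusted p = 0.0688).

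SLAM family receptors are used by leukocytes to recognise each other. Of 3 measured, none passed toward liver and 2 toward spleen. Besides Cd48, Cd84, a member that binds itself on neighbouring cells, averaged -0.83 ± 0.07, with arrays at -0.81, -0.91 and -0.77. Cd244a, the receptor of natural killer cells for Cd48, read 0.01, 0.16 and -0.49 and did not pass (limma, adjusted p = 0.560). The 3 genes lie close together on chromosome 1, with 2 other protein-coding genes between each and the next. Of 5 further SLAM family genes and adaptors, none passed toward liver and 4 toward spleen, led by the adaptor Sh2d1a at -2.17 ± 0.26.

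Among TNF family members, the costimulatory receptor Cd40 of B cells and other antigen-presenting cells read -2.41, -1.27 and -0.81. The arrays were far apart but every value was below 0, for a mean of -1.50 ± 0.83 (limma, adjusted p = 0.00922). Cd27, a costimulatory receptor of T cells and memory B cells, averaged -1.46 ± 0.31 over probes that differed strongly. Its ligand Cd70 read 0.25, 0.23 and 0.23, a 1.18-fold ratio with an SD of 0.01 (limma, adjusted p = 0.0403). The call of Cd70 was lost without any 1 of the arrays, with means of 0.23, 0.24 and 0.24 without arrays 1, 2 and 3 (limma, adjusted p = 0.147, 0.129 and 0.101), and with arrays centred, at 0.21 (limma, adjusted p = 0.0572).

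The checkpoint and paired receptors of the immunoglobulin family had mean ratios from -0.94 to -0.11. Of 6 measured, none passed toward liver, 3 passed toward spleen and 3 did not pass, with a median of -0.33. The share past the test in either direction was 50%, near the 52.8% of all genes. Toward spleen alone it was also 50%, above the 27.4% of all genes. Cd200r1 and Cd200r3 are not counted in this list. Cd274, the PD-L1 ligand that restrains T cells, read -0.71, -0.91 and -1.22, a 1.92-fold higher signal in spleen (limma, adjusted p = 0.00148), while its receptor gene Pdcd1 was at -0.13 ± 0.09 and did not pass. Cd47, which signals to phagocytes not to engulf a cell, averaged -0.46 ± 0.04, and its receptor Sirpa, on macrophages, -0.67 ± 0.23. The sialic acid lectin Cd33 of myeloid cells averaged -0.40 ± 0.04. The lymphocyte receptors Cd160 and Cd96 were at -0.11 ± 0.05 and -0.21 ± 0.05 and did not pass. With arrays centred Cd96 did pass, at -0.24 (limma, adjusted p = 0.0448).

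Cd200 and its receptors were measured together. Cd200, a ligand that calms myeloid cells, read -0.10, -0.30 and -0.42 and did not pass (limma, adjusted p = 0.0540), but passed with arrays centred, at -0.30 (limma, adjusted p = 0.0416). Its receptor Cd200r1 averaged -0.31 ± 0.13 and passed, though not without array 1, at -0.26 (limma, adjusted p = 0.135), or array 2, at -0.29 (limma, adjusted p = 0.118). Cd200r3, an activating relative on mast cells and basophils, averaged -0.55 ± 0.13 with its separate probes at -0.53 and -0.57. The 3 genes lie close together on chromosome 16, with 2 protein-coding genes between the receptors and 4 between Cd200r3 and Cd200. Of 10 partners of the paired receptors with other symbols, none passed toward liver and 3 toward spleen, with a median of -0.15. The share toward spleen was 30%, near the 27.4% of all genes.

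Of 3 measured adhesion and mucin antigens, 1 passed toward liver. Cd164, a sialomucin of endosomes and the cell surface, read 0.81, 0.93 and 0.54, a 1.69-fold ratio (limma, adjusted p = 0.00187). Cd99, an adhesion protein of leukocyte passage through endothelium, was at -0.02 ± 0.04, the ratio nearest 0 among the 43 genes. Cd44, the hyaluronan receptor, read -0.86, -1.53 and 0.58, the widest spread of any CD antigen, and its sign on array 3 was opposite to that on the others. It did not pass (limma, adjusted p = 0.236). Without array 3 it averaged -1.19 and passed toward spleen (limma, adjusted p = 0.00342).

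Genes with several probes showed how far a ratio rested on the probe. Of the 43 genes, 12 had more than 1 probe measured on all arrays, and in 5 of them the probe means lay 1 or more apart, which was so for 15.4% of the 2236 genes with several probes in the whole table. Cd27 had a probe (41) at -3.47, -3.36 and -2.39 and another (12279) at 0.02, 0.29 and 0.15. The first was far below 0 on every array and the other slightly above, and the platform annotation gives both the same gene symbol. Where the probes lie on its transcripts was not determined. For Cd1d1, probe 15712 read 2.96, 3.00 and 2.71, and probe 16888 read 0.25, 0.24 and 0.41. Both passed toward liver in the fit over 14122 probes, in which 50.2% of probes passed.

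Cd37 behaved in the same manner toward spleen, with probe 18396 at -2.64 ± 0.13 and probe 14100 at -0.60 ± 0.06, both past the test. Cd180 had probe 27 at -1.24 ± 0.45 and probe 13739 at 0.27 ± 0.11, past the test in opposite directions (limma over probes, adjusted p = 0.00282 and 0.0495). The Cd55 probes averaged -1.95 ± 0.12, -0.96 ± 0.25 and 0.35 ± 0.10, all past the test and the last of them toward liver. In Cd47 the probes averaged -0.74, -0.56 and -0.09, and the last did not pass. The probes of Cd5l, Cd84, Cd93, Cd99, Cd160 and Cd200r3 lay within 0.21 of each other. Over all 57 CD antigen probes measured on all arrays, 13 passed toward liver and 26 toward spleen, against 23.5% and 26.7% of all probes.

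**Figure D4:**
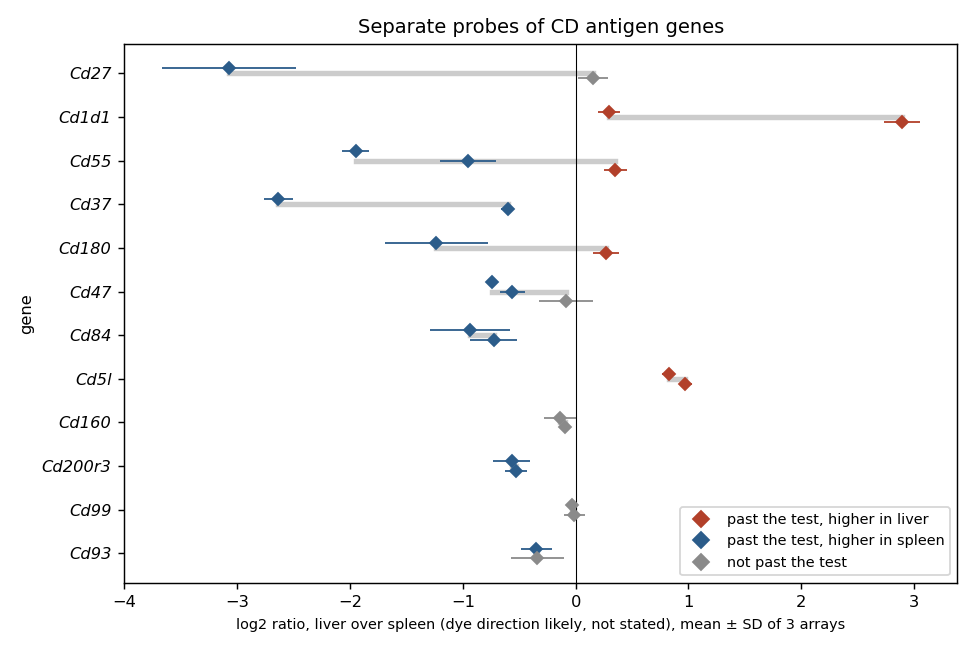
Mean log2 ratio, liver over spleen (x axis), with the SD of 3 arrays for each probe of the 12 CD antigen genes with several measured probes (y axis, widest gap at the top). Colours mark probes past the test in each direction in the fit over all probes. Cd27, Cd1d1, Cd55, Cd37 and Cd180 have probes 1 or more apart, and the other genes have probes within 0.65.

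CD antigens that carry other symbols, taken from a list of integrins, Fc receptors, enzymes and growth factor receptors, were also mostly toward spleen among those that passed. Of 57 measured, 15 passed toward liver (26.3%, against 25.3% of all genes) and 24 toward spleen (42.1%, against 27.4% of all genes). The other 18 did not pass, and the median was -0.14. Toward liver the lysosomal membrane proteins Lamp2 and Lamp1 averaged 2.15 ± 0.09 and 1.23 ± 0.20, and the aminopeptidase Enpep 1.70 ± 0.35. Toward spleen the adhesion molecule Vcam1 averaged -3.35 ± 0.12, the interleukin receptor Il7r -2.82 ± 0.12 and the leukocyte phosphatase Ptprc -2.15 ± 0.21. Ptprc and Cr2, both in this list, were among the genes from which the direction was read. Partners of the B-cell coreceptor to which Cd81 belongs were measured as well. Of 8, 2 passed toward liver, the interferon-induced membrane proteins Ifitm3 at 1.40 ± 0.04 and Ifitm2 at 0.86 ± 0.30. Another 5 passed toward spleen, led by the kinase Btk at -4.01 ± 0.10. Cr2, used for reading the direction, is also among these 5.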

How the data were processed

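The deposited table holds, per array, 1 log2 ratio of the channels for each probe. How the authors corrected background, balanced the dyes and filtered is not given in the sources used here. The log base was taken from the values, whose highest on every array is 6.64, the log2 of 100. With the exact zeros included, the median of every deposited log2 column is 0. Exact zeros (1414, 1098 and 1137 probes on arrays 1, 2 and 3) were taken as no measurement. Names come from the platform annotation. All 60 Entrez numbers of the CD antigen probes were found in the RefSeq table with the same symbol. Probes annotated with several genes (52) or with no gene (2491) did not enter the gene fit.

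Ratios of a gene's probes measured on all 3 arrays were averaged per array, which left 9803 genes. Limma 3.58.1 (R 4.3.3) tested each gene's ratio against 0 (intercept only, moderated variances with 3.38 prior degrees of freedom, two-sided, Benjamini-Hochberg adjustment over all genes, threshold 0.05). The 14122 probes were fitted likewise. On simulated data with the spreads of the 9803 genes, the test recovered 23.3%, 70.4% and 94.1% of log2 changes of 0.5, 1 and 2. Of its calls there, 3.92% were false. These rates describe the simulated data only. Recovery with a share of changed genes as large as the 52.8% past the test on these arrays was not tested.

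The members, role lists and partner lists were chosen with earlier results of these data known. Every CD antigen could be named, and from each other list up to 3 genes past the test with the largest ratios in each direction, the partners of a named antigen and marker genes. Alternatives were each array left out, centring, scaling, zeros kept, other choices of probe, and values at the table's limits left out.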

Additional observations from a re-analysis of the deposited data

How the results depend on the processing

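With each array left out, the CD antigen genes past the test numbered 7 to 8 higher in liver and 18 to 22 higher in spleen, against 10 and 21 with all arrays, and at 2-fold or more 3 and 10 to 11. Over all genes these counts were 1821 to 2157 and 2104 to 2517. With arrays centred, 9 and 24 CD antigens passed, as Cd9 (-0.37), Cd96 and Cd200 came past the test and Cd70 no longer passed, and the same 4 calls changed with arrays also scaled. Taking each gene's probe with the smallest ratio, an alternative added after seeing the data, left 10 and 16 genes past the test, and 2 and 8 at 2-fold or more. It turned Cd180 to 0.27 (limma, adjusted p = 0.0516), Cd27 to 0.15 (limma, adjusted p = 0.226) and Cd55 to 0.35 (limma, adjusted p = 0.0199), ended the calls of Cd47 at -0.09, Cd93 at -0.34 and Cd70 at 0.24, and moved the median to -0.10. No other alternative reversed a CD antigen past the test. The probe with the largest ratio gave Cd27 -3.07, Cd1d1 2.89, Cd37 -2.64, Cd55 -1.95, Cd180 -1.24 and Cd47 -0.74. With zeros kept as ratios of 0, Cd177 did not pass (limma, adjusted p = 0.0680) and Cd96 did (limma, adjusted p = 0.0473). The cause of these changes was not tested. The test on ratios within each array already pairs the RNAs, and with 1 group of arrays there was no further replicate number to block on. Signal over background, dye bias and background correction were not analysed here.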
